A study of Homo sapiens with 6 samples.

Results

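The genes described here encode the enzymes that admit pyruvate to the mitochondrial citrate cycle and the enzymes that switch that step on and off. They are the 4 pyruvate dehydrogenase kinases PDK1, PDK2, PDK3 and PDK4, the 2 phosphatases PDP1 and PDP2, and 4 subunits of the complex, PDHA1, PDHB, DLAT and PDHX. They were picked by gene name, and all 10 were found once each among the 60623 genes in the files. RNA sequencing covered 6 libraries of cells labelled hepatoblasts, at day 19 of a hepatocyte-like differentiation of H9, a single human embryonic stem cell line. In the vehicle group, 3 libraries came from cells given 0.1% DMSO. The exposed group is 3 libraries from cells treated with HFPO-TA, at a dose printed as 10 with an unclear unit. HFPO-TA, in full hexafluoropropylene oxide trimer acid, is a perfluorinated ether acid that replaces older fluorosurfactants. The length of exposure is not stated in the labels. The labels do not say whether the HFPO-TA cells also received DMSO, and they do not say if replicates are separate cultures. The p-values therefore measure only how much these libraries vary, which may be technical.

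The pyruvate dehydrogenase complex converts pyruvate from glycolysis into acetyl-CoA and so links glucose breakdown to the citrate cycle and to fatty acid synthesis. Each kinase phosphorylates the E1 alpha subunit, encoded by PDHA1, and turns the complex off, and each phosphatase removes the phosphate and turns it on again. In liver, PDK4 is well known to be raised in fasting by the fatty acid receptor PPARA, which spares pyruvate for glucose production while fatty acids are burned.

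Values are TPM, a transcript level scaled for transcript length and library total, so levels of different genes can be compared within a library. The columns summed to between 995690 and 996186, and 15383 to 15905 genes reached 1 TPM in each library. Sequencing depth is unknown, since TPM does not hold it, and counting error could not be given. Changes are log2 fold changes of TPM + 1, HFPO-TA minus DMSO, from a limma fit to the 15664 genes that reached 1 TPM in 3 libraries. A gene was called changed at a Benjamini-Hochberg adjusted p under 0.05 over all of them. All 10 members passed that filter on low values. A letter in the file names, which the labels do not explain, parts replicate 1 from replicates 2 and 3 in both groups, and the replicate 1 libraries of the 2 groups were more alike (r = 0.981 on log2 values) than either was to its own group.

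PDK4 was the 1 member of the 10 that changed, and it rose. Over all tested genes 0.492% were called in either direction and 0.185% were called higher. Of the other 9 members none was called in limma, and their median log2 fold change was -0.08, against -0.01 over all tested genes. At an unadjusted p under 0.05 stood 4 members, PDK4, PDHA1, PDHX and PDP1, where 12.0% of all tested genes did. Groups did not overlap, with HFPO-TA higher, for 3 members (PDK4, PDHA1 and PDHX; 8.55% of all tested genes), and with HFPO-TA lower for 2 (PDK3 and PDP1; 9.40% of all tested genes).

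**Figure D1:**
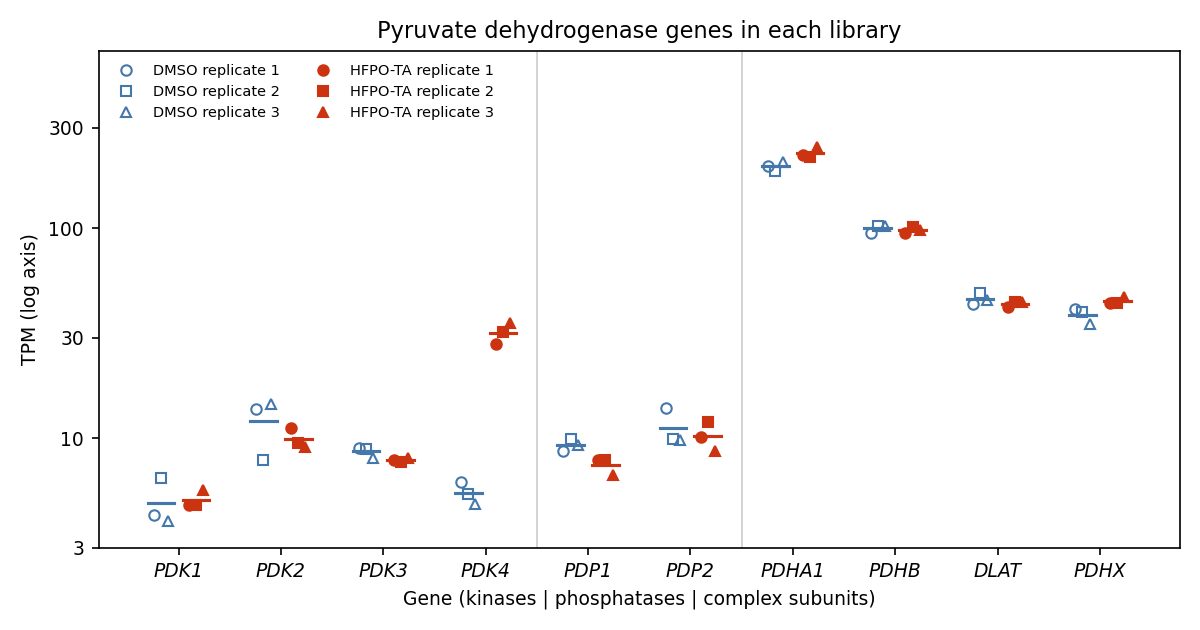
TPM of each of the 10 genes in each library on a log axis, with open blue symbols for DMSO, filled red symbols for HFPO-TA, symbol shape for the replicate number and a bar at the group mean of 3 libraries. PDK4 moves from between 4.84 and 6.15 TPM to between 28.04 and 35.41 TPM, while the groups of 5 other genes overlap.

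Among the kinases, PDK4 stood at 6.15, 5.39 and 4.84 TPM in the DMSO libraries and at 28.04, 32.03 and 35.41 TPM in the HFPO-TA libraries. Every exposed library was above every vehicle library, and the mean level was 5.83-fold higher (log2 fold change 2.34, SE 0.13, 95% interval 2.06 to 2.63, adjusted p = 0.000546 in limma). Over the 15664 tested genes it ranked 2 by p and 2 by size of rise. The call held in all 16 alternative fits (adjusted p from 0.000157 to 0.00898), with a log2 fold change of 2.51 in replicates 2 and 3 alone (adjusted p = 0.00156). Replicate 1 has 1 library per group and cannot be tested alone.

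PDK4 (ENSG00000004799) lies on the minus strand of chromosome 7, from 95583499 to 95596491 (GRCh38, GENCODE 29), and no other annotated gene overlaps it. Its proximal promoter is shown because it is the start region of the changed member. These are the 250 bases before the RefSeq start, at chr7:95596517-95596766 on the minus strand (GRCh38.p14), read 5′ to 3′, with capitals marking the matches to CCAAT and GGGCGG on either strand.

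PDK4 promoter: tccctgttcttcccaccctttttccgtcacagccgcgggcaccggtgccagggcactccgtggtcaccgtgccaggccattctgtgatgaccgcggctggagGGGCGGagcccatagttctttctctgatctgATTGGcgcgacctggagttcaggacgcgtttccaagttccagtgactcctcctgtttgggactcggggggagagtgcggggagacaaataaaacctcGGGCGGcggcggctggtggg

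CCAAT, the letters bound by nuclear factor Y, matched at 117 bases before the start, and GGGCGG, the GC box bound by Sp1-type factors, matched at 148 and 20 bases before it. CCAAT was held by 32.0% and GGGCGG by 42.6% of the 35116 promoter windows of the same length in the RefSeq table. In these letters there was no AGGTCA, the half-site of nuclear receptors (12.1% of windows), and so no pair of AGGTCA copies 1 base apart, the form known for PPARA with RXR (0.0171%). GTAAACA (2.98%), TATAAA (10.7%) and ACGTG (18.5%) had no match either. AGGTCA was also absent from all 13 windows of the 9 members found in the table. Of these 13 windows CCAAT occurred in 8, GGGCGG in 10 and ACGTG in 7. PDP1 was not matched.

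PDK2, the most widely expressed of these kinases in adult tissues, was the most abundant kinase transcript under DMSO by its mean, at 13.80, 7.90 and 14.56 TPM. With HFPO-TA it stood at 11.11, 9.48 and 9.03 TPM. The vehicle libraries spanned the exposed ones, and the difference did not pass the test (log2 fold change -0.23, SE 0.21, 95% interval -0.72 to 0.27, adjusted p = 0.745 in limma). The value stayed below 0 but ran from -0.49 without DMSO replicate 2, the lowest library, to -0.08 without DMSO replicate 3, and it was -0.12 without DMSO replicate 1. PDK2 shares 2113 bases of transcript with the opposite-strand gene SAMD14 (3.97 and 3.32 TPM), so its value is uncertain, as the sources used here do not say whether counting kept strand.

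PDK1, a kinase known as a target of the hypoxia factor HIF1A, stood at 4.32, 6.45 and 4.02 TPM with DMSO and at 4.81, 4.81 and 5.65 TPM with HFPO-TA. Only DMSO replicate 2 was above the exposed range, and the mean of the groups was close to equal (log2 fold change 0.06, SE 0.18, 95% interval -0.35 to 0.47, adjusted p = 0.933 in limma). The sign of this small value turned without DMSO replicate 1 or 3 or HFPO-TA replicate 3 (-0.01, -0.05 and -0.01). PDK3, encoded on the X chromosome, stood at 9.01, 8.89 and 8.01 TPM with DMSO and at 7.83, 7.69 and 8.0 TPM with HFPO-TA. Its groups were parted by the gap between 8.01 and 8.0 TPM alone, and the change did not pass (log2 fold change -0.12, SE 0.11, adjusted p = 0.718 in limma).

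**Figure D2:**
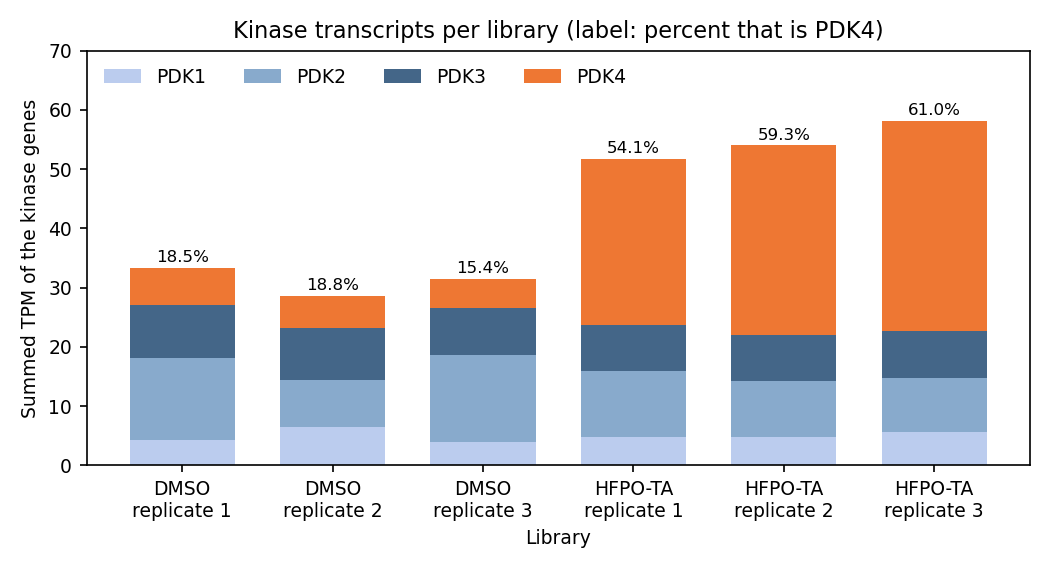
Summed TPM of the 4 kinase genes in each library as stacked bars that start at 0, with the percent contributed by PDK4 printed above each bar. The PDK4 layer accounts for 15.4% to 18.8% of the bar in the DMSO libraries and for 54.1% to 61.0% in the HFPO-TA libraries, while PDK1, PDK2 and PDK3 together span 23.2 to 27.1 TPM and 22.0 to 23.8 TPM.

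Added together, the 4 kinases came to 33.3, 28.6 and 31.4 TPM with DMSO and to 51.8, 54.0 and 58.1 TPM with HFPO-TA. The total was thus 1.76-fold higher (31.1 ± 2.34 against 54.6 ± 3.20 TPM, SD, n = 3 each, exact permutation p = 0.10, 2-sided). The share of PDK4 in kinase TPM was 17.6% ± 1.89 in vehicle and 58.1% ± 3.56 in exposed libraries (SD, n = 3 each, exact permutation p = 0.10, 2-sided). In the DMSO libraries PDK2 gave 41.5%, 27.6% and 46.3% of kinase TPM, and in the HFPO-TA libraries 21.5%, 17.6% and 15.5%. Summed without PDK4, the other 3 kinases stood at 25.7 ± 2.11 and 22.8 ± 0.89 TPM and their groups overlapped (SD, n = 3 each, exact permutation p = 0.20, 2-sided).

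The rise of PDK4 was also set against its 3 sister kinases within each library. On the log2(TPM + 1) scale PDK4 lay below their mean by 0.37, 0.44 and 0.61 in the DMSO libraries and above it by 1.77, 2.03 and 2.11 in the HFPO-TA libraries. Its position relative to them moved by 2.44 (exact permutation p = 0.10, 2-sided). For this and the other sums and ratios of members 0.10 is the smallest p that 3 libraries against 3 allow, so none of them can pass 0.05. There were 9 such quantities, and adjusted over the 9 a p of 0.10 becomes 0.129. Those that include PDK4 all carry its rise and are not independent of each other.

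The phosphatases did not rise. PDP1, the calcium-stimulated phosphatase best known from muscle, stood at 8.64, 9.93 and 9.23 TPM with DMSO and at 7.88, 7.86 and 6.69 TPM with HFPO-TA. All exposed libraries were below all vehicle libraries, but the change did not pass the test over all genes (log2 fold change -0.28, SE 0.12, 95% interval -0.55 to -0.01, adjusted p = 0.399 in limma). PDP2, the calcium-insensitive phosphatase known from liver and fat, ranged from 9.81 to 13.98 TPM with DMSO and from 8.65 to 11.99 TPM with HFPO-TA. These ranges overlapped (log2 fold change -0.11, SE 0.17, 95% interval -0.50 to 0.28, adjusted p = 0.862 in limma), and the sign turned without DMSO replicate 1 (0.05).

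Transcripts of kinases outnumbered those of phosphatases in every library. The ratio of summed kinase to summed phosphatase TPM was 1.47, 1.45 and 1.65 with DMSO and 2.87, 2.72 and 3.79 with HFPO-TA, 2.05-fold higher by the means (exact permutation p = 0.10, 2-sided). The kinase sum includes PDK4 and so carries its rise, while PDK1, PDK2 and PDK3 together stood at 25.7 and 22.8 TPM. The phosphatase sum itself was 20.5 ± 1.89 and 17.7 ± 2.27 TPM with overlapping groups (SD, n = 3 each, exact permutation p = 0.30, 2-sided). These are transcript ratios, and neither protein nor phosphorylation of the complex was measured. PDPR, which encodes the regulatory subunit of the phosphatase, stood at 10.5 ± 0.77 and 10.5 ± 1.24 TPM (SD, n = 3 each). It is uncertain, since over 2052 bases its transcript is 98.9% identical to that of the pseudogene AC009053.1 (1.52 and 1.92 TPM).

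**Figure D3:**
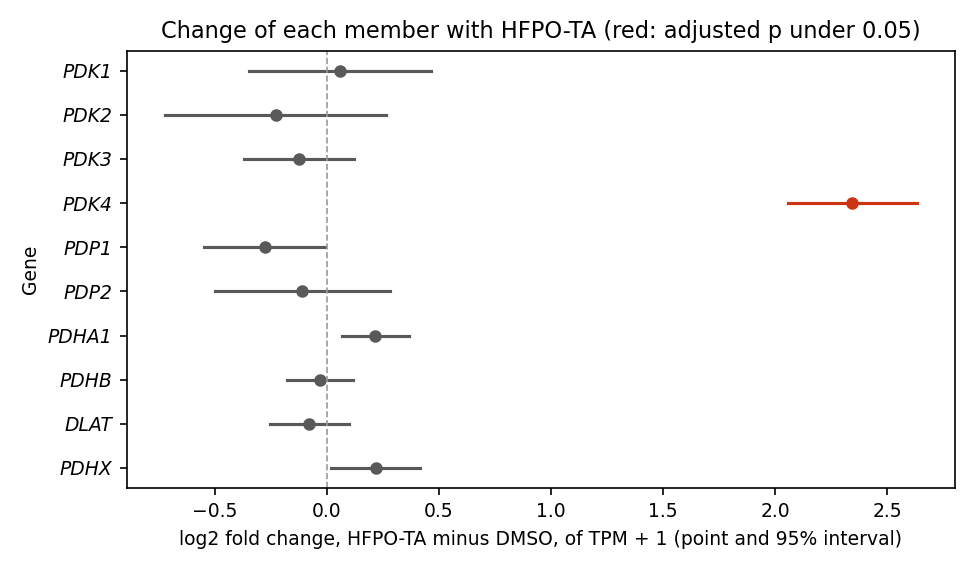
Log2 fold change of each of the 10 genes on the TPM + 1 scale (HFPO-TA minus DMSO), with the 95% interval from limma as a line and the called gene in red. PDK4 lies at 2.34 with an interval of 2.06 to 2.63, and each of the other 9 points lies between -0.28 and 0.22.

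Of the 4 subunits of the complex, none was called in limma, and 2 lay above and 2 below 0. PDHA1, the E1 alpha subunit that the kinases act on, stood at 196.94, 187.79 and 205.94 TPM with DMSO and at 224.03, 219.20 and 243.44 TPM with HFPO-TA. Every exposed library was higher (1.16-fold by the means), and the change did not pass over all genes (log2 fold change 0.22, SE 0.07, 95% interval 0.07 to 0.37, adjusted p = 0.239 in limma). PDHB, the E1 beta subunit that pairs with it, ranged from 95.20 to 102.60 TPM and from 94.40 to 101.59 TPM. These ranges nearly coincided, with a log2 fold change of -0.03 and a 95% interval of -0.18 to 0.12 (adjusted p = 0.904 in limma).

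DLAT, the E2 acetyltransferase that forms the core of the complex, ranged from 43.47 to 49.27 TPM with DMSO and from 41.97 to 44.49 TPM with HFPO-TA. Its groups overlapped (log2 fold change -0.08, SE 0.08, 95% interval -0.25 to 0.10, adjusted p = 0.756 in limma). PDHX, which holds the E3 subunit to that core, stood at 41.10, 39.93 and 34.81 TPM with DMSO and at 43.76, 43.99 and 47.12 TPM with HFPO-TA. All exposed libraries were higher, and the change did not pass (log2 fold change 0.22, SE 0.09, 95% interval 0.02 to 0.42, adjusted p = 0.368 in limma). PDHX shares 261 transcript bases with the opposite-strand gene APIP (21.77 and 20.81 TPM) and is uncertain to that extent. Opposite-strand genes that share exons with PDHA1, PDHB, DLAT and PDK1 were lower, from 0.21 to 1.72 TPM. DLD, the E3 subunit that the complex shares with its sister complexes, stood at 59.5 ± 8.26 and 67.0 ± 4.13 TPM with overlapping groups (SD, n = 3 each). Its exons overlap those of the far more abundant LAMB1 on the opposite strand, at 530.7 and 537.61 TPM.

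The balance of subunits was chosen for computing after the values had been seen. PDHA1 exceeded PDHB 2.07, 1.83 and 2.02 times with DMSO and 2.37, 2.16 and 2.49 times with HFPO-TA (exact permutation p = 0.10, 2-sided). The ratio of PDHX to DLAT was 0.95, 0.81 and 0.76 with DMSO and 1.04, 0.99 and 1.06 with HFPO-TA (exact permutation p = 0.10, 2-sided). In both ratios the groups did not overlap. The 4 kinases together amounted to 0.105 ± 0.008 of the TPM of PDHA1 and PDHB in vehicle libraries and to 0.167 ± 0.004 in exposed ones (SD, n = 3 each, exact permutation p = 0.10, 2-sided).

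By level, the complex stood well above its regulators. Among tested genes 96.5% had a lower DMSO mean than PDHA1, 92.7% than PDHB, 83.8% than DLAT and 80.8% than PDHX, while the 6 regulators were mid-range or lower, at 53.1% for PDK2, 51.2% for PDP2, 46.2% for PDP1, 44.5% for PDK3, 33.4% for PDK4 and 31.5% for PDK1. With DMSO the order of the means was PDHA1, PDHB, DLAT, PDHX, PDK2, PDP2, PDP1, PDK3, PDK4 and PDK1. The neighbours from PDK2 to PDK3 overlapped in their ranges, as did PDK4 and PDK1. With HFPO-TA PDK4 was in place 5 of 10, below DLAT and above PDP2, with no overlap on either side, and DLAT and PDHX overlapped. PDK4 was the 1 regulator whose place moved by more than 2.

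The other genes of the pathway were taken from 8 lists of 86 genes, and 4 genes were called, all of them PPARA targets. In the list of pyruvate transport and fates 0 of 14 genes were called in limma (3 at an unadjusted p under 0.05; median log2 fold change 0.09). MPC1, a subunit of the carrier that brings pyruvate into mitochondria, stood at 118.29, 141.21 and 129.36 TPM with DMSO and at 177.16, 202.92 and 226.00 TPM with HFPO-TA. Its groups did not overlap, and it missed the threshold narrowly (log2 fold change 0.63, SE 0.10, adjusted p = 0.0506 in limma). It passed in 4 of the 16 alternative fits in limma. These were the fits with at least 5 TPM (adjusted p = 0.0283) and with a term for the file-name letter (adjusted p = 0.0117). The others were without HFPO-TA replicate 1 (adjusted p = 0.0187) and in replicates 2 and 3 alone (adjusted p = 0.0309). Over all its alternatives the adjusted p ran from 0.0117 to 0.254. PKLR, the liver pyruvate kinase that makes pyruvate, had the smallest p of those that were lower, at 6.33 ± 1.74 and 3.51 ± 0.37 TPM (SD, n = 3 each, log2 fold change -0.68, adjusted p = 0.208 in limma). It overlaps HCN3 on the opposite strand (2.88 and 1.92 TPM).

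**Figure D4:**
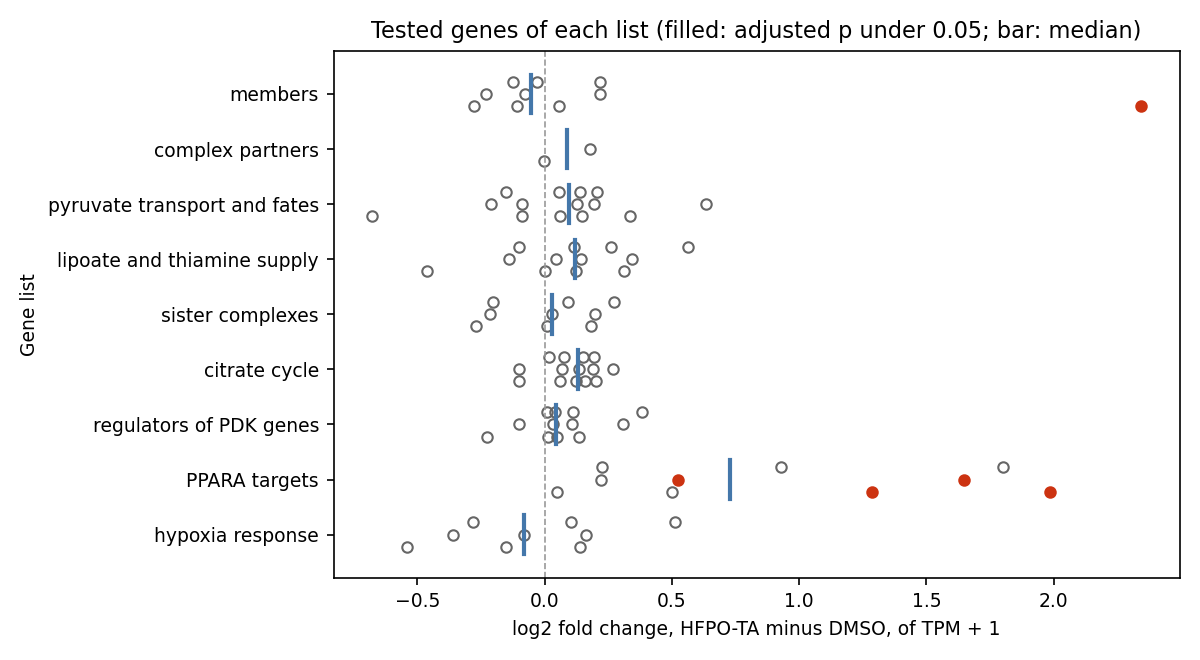
Log2 fold change on the TPM + 1 scale (HFPO-TA minus DMSO) of every tested gene in each list, 1 circle per gene, filled red where called, with a blue bar at the list median. The PPARA targets hold the 4 filled points outside the members and have a median of 0.73, while the other lists have medians between -0.08 and 0.13.

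Genes that supply the complex with its cofactors, lipoate and thiamine, numbered 12, and 0 were called in limma (3 at an unadjusted p under 0.05; median 0.12). LIAS, the lipoate synthase, stood at 10.4 ± 2.17 and 15.9 ± 3.05 TPM, and LIPT2, a lipoyl transferase, at 1.82 ± 0.91 and 0.98 ± 0.28 TPM (SD, n = 3 each). LIAS overlaps the ribosomal protein gene RPL9 on the opposite strand (1544.3 and 1651.37 TPM) and LIPT2 overlaps AP001372.2 (1.8 and 2.08 TPM), so both values are uncertain. In the sister complexes for 2-oxoglutarate and branched-chain acids 0 of 9 genes were called (2 at an unadjusted p under 0.05; median 0.03). BCKDK, the kinase of the branched-chain complex and a relative of the pyruvate dehydrogenase kinases, stood at 29.2 ± 0.91 and 25.3 ± 1.46 TPM and did not pass (SD, n = 3 each, log2 fold change -0.20, adjusted p = 0.374 in limma). DHTKD1, an E1 subunit for 2-oxoadipate, stood at 13.8 ± 0.96 and 16.9 ± 1.92 TPM.

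Citrate cycle genes, which use the acetyl-CoA, numbered 14, and 12 of them lay above 0 (7561 of 15664 over all tested genes), with a median of 0.13 and 0 called in limma (3 at an unadjusted p under 0.05). MDH2, the mitochondrial malate dehydrogenase, stood at 127 ± 10.2 and 146 ± 1.93 TPM and IDH3G, a subunit of isocitrate dehydrogenase, at 33.2 ± 1.86 and 30.9 ± 0.63 TPM (SD, n = 3 each). Neither passed, and IDH3G overlaps SSR4 on the opposite strand (345.8 and 353.53 TPM). Hypoxia genes, of interest beside PDK1, numbered 9 tested of 10, with 0 called (3 at an unadjusted p under 0.05) and a median of -0.08. NDRG1 was higher by 0.51 (adjusted p = 0.133; 0.0415 with a term for the file-name letter) and EGLN3 lower, at -0.36 (adjusted p = 0.249), on the log2 scale in limma.

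Factors known to act on PDK genes numbered 12, with 0 called in limma (2 at an unadjusted p under 0.05) and a median of 0.05. PPARA stood at 25.14, 21.91 and 17.77 TPM with DMSO and at 26.86, 28.49 and 29.31 TPM with HFPO-TA. All exposed libraries were higher, and the change did not pass (log2 fold change 0.38, SE 0.13, adjusted p = 0.270 in limma). RXRA, its partner, stood at 29.8 ± 1.73 and 25.2 ± 0.998 TPM (SD, n = 3 each, log2 fold change -0.23, adjusted p = 0.317 in limma).

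In the list of PPARA targets, to which PDK4 would belong, 4 of 10 tested genes rose and none fell, and all 10 lay above 0. Over all tested genes 0.185% were called higher, and 7561 of 15664 lay above 0. The other 6 tested targets were not called. Nearest 0 was ANGPTL4, with overlapping groups at 17.7 and 18.4 TPM (log2 fold change 0.05, adjusted p = 0.902 in limma). CYP4A11 and VNN1, at 0.14 TPM or less, were too low to be tested. Among the 4 targets that rose were PLIN2, a coat protein of lipid droplets, ACSL5, which activates long-chain fatty acids, and CREB3L3, a membrane-bound transcription factor of the fasted liver. PLIN2 stood at 116.56, 100.79 and 105.95 TPM and at 404.88, 432.51 and 452.03 TPM (adjusted p = 5.80e-05 in limma). ACSL5, which overlaps ZDHHC6 on the opposite strand, stood at 20.6 ± 1.48 and 51.8 ± 4.99 TPM (SD, n = 3 each, adjusted p = 0.00316 in limma). CREB3L3 stood at 60.1 ± 0.88 and 86.9 ± 4.25 TPM (SD, n = 3 each, log2 fold change 0.52, adjusted p = 0.0272 in limma). Its call ended in 9 of the 16 alternative fits in limma. These were the fits without any 1 library other than HFPO-TA replicate 1 (adjusted p from 0.0552 to 0.189), with the replicate number as a block (0.061), without a filter (0.105), without trend and robust variance (0.104) and with median-of-ratios scaling (0.0694). This list was drawn up with earlier results of these libraries known and is not independent support.

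Across the 6 libraries the profile of PDK4 was most like those of PLIN2, LCT, ACSL5, RBP2 and DUSP9. Likeness was Pearson's r of log2(TPM + 1) over the 6 libraries, taken over 908 tested genes that averaged 2 TPM or more and spanned at least 1 on that scale. Members, and genes whose symbol is based on a clone or locus number, were left out of the 908. It was 0.998 for PLIN2, 0.993 for LCT, 0.992 for ACSL5, 0.991 for RBP2 and 0.979 for DUSP9, and in each case it mainly reflects the step between the groups. LCT, the intestinal lactase, stood at 159 ± 11 and 305 ± 9.83 TPM, and RBP2, a retinol-binding protein, at 290 ± 11.6 and 1235 ± 248 TPM (SD, n = 3 each). DUSP9, a phosphatase of MAP kinases, stood at 135 ± 7.29 and 244 ± 25.3 TPM (SD, n = 3 each, adjusted p = 0.0104 in limma). Its call ended in 5 of the 16 alternative fits in limma. These were the fits without DMSO replicate 2 or 3 or HFPO-TA replicate 2 (adjusted p = 0.0618, 0.0786 and 0.0582), without a filter (0.0583) and without trend and robust variance (0.0775).

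**Figure D5:**
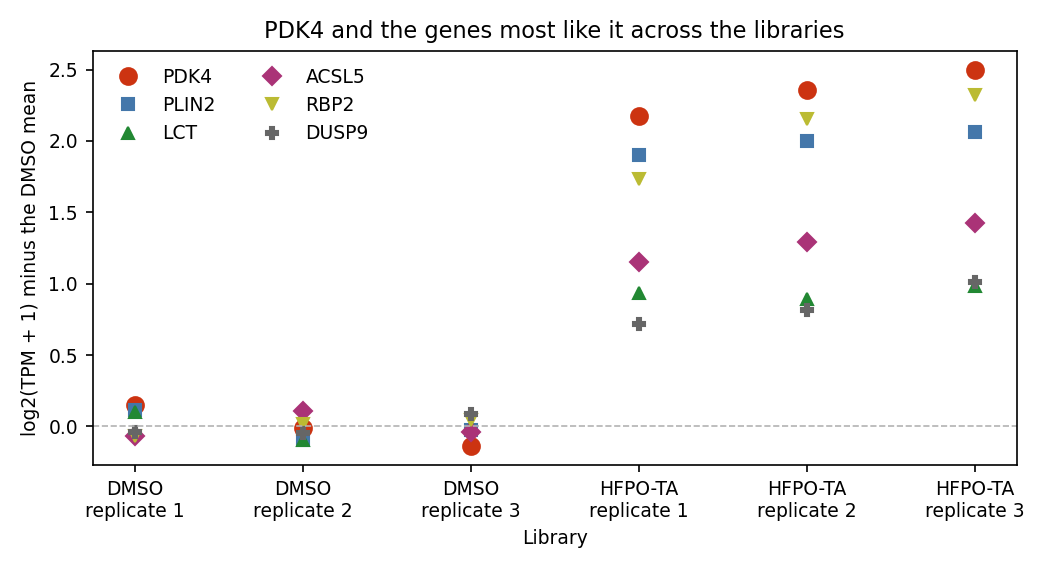
Log2(TPM + 1) of PDK4 and the 5 most similar genes in each library, as the difference from that gene's DMSO mean, 1 symbol per gene. All 6 genes lie near 0 in the DMSO libraries and above it in the HFPO-TA libraries, with PDK4 the highest in each of these.

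The cell type label was checked against markers. All 9 hepatoblast markers reached 1 TPM, with AFP at 71682.03 to 79063.05 TPM and ALB at 100.92 to 128.68 TPM in the DMSO libraries. With HFPO-TA these 2 stood at 63150.38 to 66804.17 and 54.07 to 73.51 TPM. Gut markers were present too, with VIL1 at 197.52 to 221.16 TPM and CDX2 at 54.24 to 72.89 TPM with DMSO. Of the same list TFF3 stood at 3.33 to 5.33 TPM and LGR5 at 0.49 to 0.61 TPM with DMSO. Stromal markers were present as well, and summed to 1072.4 to 1691.7 TPM with DMSO and 897 to 1862.1 TPM with HFPO-TA. Among these, COL3A1 was highest in replicate 1 of both groups (1060.9 and 1191.24 TPM). The sums of endothelial, neural and blood markers overlapped between the groups, as did the stromal sum. In bulk RNA fewer cells of a type and less RNA per cell cannot be told apart. PDK4 is abundant in heart, skeletal muscle and fat. The summed TPM of 6 heart and skeletal muscle markers ran from 78.2 to 89.4 with DMSO and from 62.1 to 106 with HFPO-TA. Most of it was MYL7 (means 71.6 and 67.2 TPM), and TNNT2 came next (11.6 and 9.42 TPM). ACTN2 stood at 0.957 and 1.1 TPM and MYH6 at 0.6 and 0.373 TPM. CKM was at 0.12 TPM or less and MYH7 at 0.16 TPM or less. The 4 fat cell markers summed to 2.87 to 3.21 and 2.93 to 3.41 TPM, with ADIPOQ and LEP at 0.02 TPM or less, so these sums overlapped between the groups. The hepatoblast sum, most of it AFP, was lower with HFPO-TA (100871 to 110912 against 91192 to 98251 TPM), as were the sums of gut (274 to 283 against 254 to 265 TPM) and pluripotency markers (14.7 to 15.9 against 11.9 to 14.6 TPM). Most of the gut sum was VIL1 (means 211 and 198 TPM) and CDX2 (61.6 and 58.5 TPM), and the groups of each overlapped. LGR5 (0.56 and 0.517 TPM) overlapped too. TFF3 (4.03 and 1.53 TPM) was lower without overlap and was not called in limma. Most of the pluripotency sum was LIN28A (means 7.21 and 5.98 TPM) and DNMT3B (7.43 and 5.75 TPM). POU5F1 (0.57 and 1.11 TPM), SOX2 (0.25 and 0.40 TPM) and NANOG (0.01 and 0.08 TPM) had higher means with HFPO-TA and overlapping groups. Of the 9 hepatoblast markers 5 had a lower mean with HFPO-TA (AFP, ALB, HNF4A, TTR and KRT18) and 4 a higher one, namely APOA1 (20579 and 21420 TPM), FOXA2 (8.03 and 9.62 TPM), DLK1 (200 and 223 TPM) and EPCAM (665 and 702 TPM). Their part in the rise of PDK4 was not tested.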

How the data were processed

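RNA sequencing of 3 DMSO and 3 HFPO-TA libraries was deposited as 1 table per library with a value per gene. The file headers call the value FPKM, but the columns sum to just under 1000000, so the values deposited by the authors were read as TPM. Per the submitters' processing notes the tools were HISAT, Bowtie2 and RSEM, with no version or role, on GRCh38.p13. The library kit, its strand and the annotation used are not given there or in the labels.

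The 15664 genes that reached 1 TPM in 3 libraries were tested, and log2(TPM + 1) was fitted with limma 3.58.1 in R 4.3.3, with treatment as the only term and a trended, robust variance. This pseudocount understates changes of low genes. Adjusted p-values are Benjamini-Hochberg over all tested genes, 2-sided, and intervals are 95%. Sums and ratios were compared with exact permutation tests (scipy 1.17.1). Fits were tested on simulated data.

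Named genes were the members, DLD and PDPR, every called gene and the smallest p in each direction of each list, and the 5 genes most like PDK4. A gene that the rule took is not reported here. Members, lists and rules were chosen with earlier results of these data known. Alternatives changed the pseudocount, filter, variance estimate, scaling, terms of the model and libraries. The subunit balances, the kinase to E1 ratio, the sum of the other 3 kinases and the totals of kinases and phosphatases were added after values had been seen. Positions and overlaps are from GENCODE 29 (58516 of 60623 identifiers matched), and shared transcript stretches of at least 200 bases at 95% identity or more were searched by blastn 2.17.0. Promoter letters are from RefSeq (GRCh38.p14), matched by symbol for 9 of the 10 members.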

Additional observations from a re-analysis of the deposited data

How the results depend on the processing

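PDK4 was called in all 16 alternative fits, with log2 fold changes of 2.27 to 2.52, and in each of them it was the 1 member called. The other members were called in none, including PDK1, which falls under the filter of 5 TPM and was not tested there. The share of kinase TPM that is PDK4 differed by 39.2 to 43.0 percentage points, the kinase to phosphatase ratio by 0.95 (with PDPR added to the phosphatases) to 1.81, and PDK4 against its sister kinases by 2.37 to 2.62 on the log2 scale, with the direction kept throughout. Called genes in all numbered 77, against 10 without a filter, 130 with at least 5 TPM, 11 without trend and robust variance, 30 with median-of-ratios scaling and 39 with scaling to the upper quartile. A model term for the file-name letter gave 207. They numbered 222 in replicates 2 and 3 alone and 6 to 291 with 1 library left out (6 when HFPO-TA replicate 2 was, 291 when HFPO-TA replicate 1 was). Called genes of the 8 lists numbered 4, with 2 to 8 when 1 library was left out and 8 in replicates 2 and 3 alone. They numbered 3 with median-of-ratios scaling. The cause was not tested.

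Signs turned only for genes near 0 that were not called. PDK1 was at -0.009, -0.051 and -0.007 when DMSO replicate 1, DMSO replicate 3 or HFPO-TA replicate 3 was left out, with 0.234 as the highest such value. PDP2 was at 0.046 without DMSO replicate 1 (lowest -0.218, without HFPO-TA replicate 2) and 0.047 in replicates 2 and 3 alone. PDPR, at -0.003, reached 0.014 with median-of-ratios scaling and 0.051, 0.051 and 0.029 when HFPO-TA replicate 2, DMSO replicate 1 or HFPO-TA replicate 3 was left out, with -0.089 as the lowest such value. No setting moved the median of all tested genes beyond -0.037 or 0.021.

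Replicate numbers are not stated to pair the libraries. Deviations from the group means correlated at 0.184, 0.123 and 0.028 for equal numbers and -0.158 to 0.068 otherwise. With the replicate number as a block 30 genes and 2 list genes were called, and PDK4 stood at 2.34 (adjusted p = 0.00854).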
